A study of Mus musculus with 9 samples.

Results

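The core and naive pluripotency transcription factors form a set of 10 genes: Pou5f1, Sox2 and Nanog, the orphan nuclear receptors Esrrb and Nr0b1, the Kruppel-like factors Klf2, Klf4 and Klf5, and Tfcp2l1 and Prdm14. They were chosen by name and matched by symbol to the gene identifiers of the count files. All 10 were found among 37310 gene rows, and all 10 passed the filter on low counts among 16224 genes tested. RNA sequencing covered 9 libraries of mouse embryonic stem (ES) cells, all derived from the parental line E14 and grown without feeders in serum with LIF, the cytokine that activates Stat3. In the ethanol control, Zbtb11lox/lox cells with ERt2-Cre at Rosa26 received the carrier ethanol. In the group labelled Zbtb11 KO, cells of the same genotype received 250 nM 4-hydroxytamoxifen (4OHT), which switches on the ERt2-Cre recombinase. In the 4OHT control, Zbtb11WT/WT cells with an unmodified Rosa26 locus received 250 nM 4OHT. All 3 groups were taken at 72 h, with 3 libraries each. The 2 controls therefore differ from each other in the floxed alleles, the Cre gene and 4OHT. The labelled KO libraries differ from the ethanol control in 4OHT, and from the 4OHT control in the floxed alleles and the Cre gene. The labels do not say how many clones were used or whether replicates were separate cultures. The p-values therefore weigh differences only against the spread among the 9 libraries, which may be technical.

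In mouse ES cells, Oct4 (the product of Pou5f1) and Sox2 bind DNA together and hold the pluripotent state with Nanog. The naive factors Esrrb, Klf2, Klf4, Klf5, Tfcp2l1 and Prdm14 surround this core, and overlapping inputs from LIF and Stat3 and from Wnt signalling sustain many of them. They fall away at different times when ES cells leave the naive state, whereas Pou5f1 and Sox2 remain expressed for longer.

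Gene counts summed to between 16909139 and 23544893 per library. The gene-level count of Zbtb11, the targeted gene, was not lower in the libraries labelled KO: scaled to the library size as CPM, its mean was 355 ± 6.70 (SD, n = 3) with ethanol, 377 ± 8.47 under the KO label and 368 ± 9.31 for the 4OHT control. Against the ethanol control its log2 difference was 0.09, with an edgeR adjusted p of 0.17, or 0.032 with the replicate number as a block. Which exons the Cre removes is left unstated by the labels, and a count over the whole gene does not check the deletion. Reads without a feature made up 32.7% to 33.8% of reads in the labelled KO libraries and 26.4% to 28.7% in the controls; the part of this in the results was not tested.

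To show the regulatory sequence at these genes, windows of 250 bases before the RefSeq start sites (GRCm38.p6) were searched. RefSeq promoter entries were matched for 8 of the 10 genes, with 11 windows in all. The motifs were the octamer core TTTGCAT bound by Oct4, the Klf box GGGTGTG and the Esrrb half-site AAGGTCA, each on both strands, and no matches overlapped. 4 windows are shown: those of Sox2 and Nanog, core genes with an octamer core, the first Esrrb start site, the single window with a Klf box, and Nr0b1, which fell in both comparisons of the labelled KO libraries. Capitals mark the motif. The Sox2 window is chr3:34649745-34649994, the Nanog window chr6:122707239-122707488, the Esrrb window chr12:86360867-86361116 and the Nr0b1 window chrX:86191525-86191774, all on the plus strand and upstream of the gene.
Sox2: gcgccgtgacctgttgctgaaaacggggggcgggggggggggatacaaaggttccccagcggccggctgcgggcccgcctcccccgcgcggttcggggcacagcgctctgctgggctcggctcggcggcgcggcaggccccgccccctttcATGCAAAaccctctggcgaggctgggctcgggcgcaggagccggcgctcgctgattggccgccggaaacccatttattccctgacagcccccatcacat
Nanog: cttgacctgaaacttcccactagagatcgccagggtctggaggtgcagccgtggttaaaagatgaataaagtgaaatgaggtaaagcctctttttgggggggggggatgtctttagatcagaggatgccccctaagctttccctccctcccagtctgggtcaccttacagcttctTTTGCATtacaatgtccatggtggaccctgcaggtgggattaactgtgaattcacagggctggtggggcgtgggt
Esrrb: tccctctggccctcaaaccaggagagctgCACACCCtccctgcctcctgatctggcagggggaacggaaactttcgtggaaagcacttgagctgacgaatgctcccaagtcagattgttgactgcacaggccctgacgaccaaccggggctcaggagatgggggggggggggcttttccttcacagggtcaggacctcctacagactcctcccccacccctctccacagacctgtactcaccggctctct
Nr0b1: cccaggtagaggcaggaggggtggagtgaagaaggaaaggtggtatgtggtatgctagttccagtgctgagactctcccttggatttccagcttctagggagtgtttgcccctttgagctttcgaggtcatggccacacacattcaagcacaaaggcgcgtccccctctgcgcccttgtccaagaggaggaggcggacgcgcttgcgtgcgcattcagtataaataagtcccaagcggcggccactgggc
The Sox2 octamer core begins 99 bases before the start site and reads on the minus strand. The Nanog octamer core begins 75 bases before its first start site on the plus strand, and a second Nanog window holds the same element. The Esrrb Klf box begins 221 bases before the start site and reads on the minus strand. Among the 11 windows of the set, 3 held the octamer core, 1 the Klf box and 0 the half-site. Of 32851 promoter windows of this length, 4.13% held the octamer core, 6.93% the Klf box and 4.08% the half-site. These are matches of letters, and the libraries hold no binding data.

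Levels were compared between genes per length, as CPM per kilobase of exon in the GENCODE M21 annotation. Pou5f1 had the highest level in the ethanol control, 336 ± 4.25 CPM per kb, followed by Nanog at 258 ± 21.6, Sox2 at 233 ± 7.59 and Klf2 at 152 ± 18.6, and none of these neighbours overlapped. Klf4 at 74.9 ± 5.97 and Esrrb at 73.5 ± 2.55 overlapped. Nr0b1 at 37.1 ± 3.23, Tfcp2l1 at 35.5 ± 5.19 and Klf5 at 34.5 ± 1.09 overlapped as well. Prdm14 was lowest, at 10.9 ± 2.01 CPM per kb. The set thus ran from a regulator at a percentile of 99.5 among tested genes with a length to one at a percentile of 72.5.
The labelled KO libraries kept the order of the ethanol control by mean level, and the order shifted in the 4OHT control. In the labelled KO libraries the ranges of Pou5f1 (305 ± 23.2), Nanog (268 ± 38.2) and Sox2 (232 ± 15.0 CPM per kb) overlapped from neighbour to neighbour. Klf4, at 88.9 ± 10.2, stood clear of Esrrb at 62.4 ± 5.37 there. In the 4OHT control, Sox2 at 228 ± 14.2 lay above Nanog at 203 ± 37.0 with overlapping ranges, and Klf5 at 38.3 ± 3.85 lay above Tfcp2l1 at 24.5 ± 6.16 CPM per kb without overlap.

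**Figure D1:**
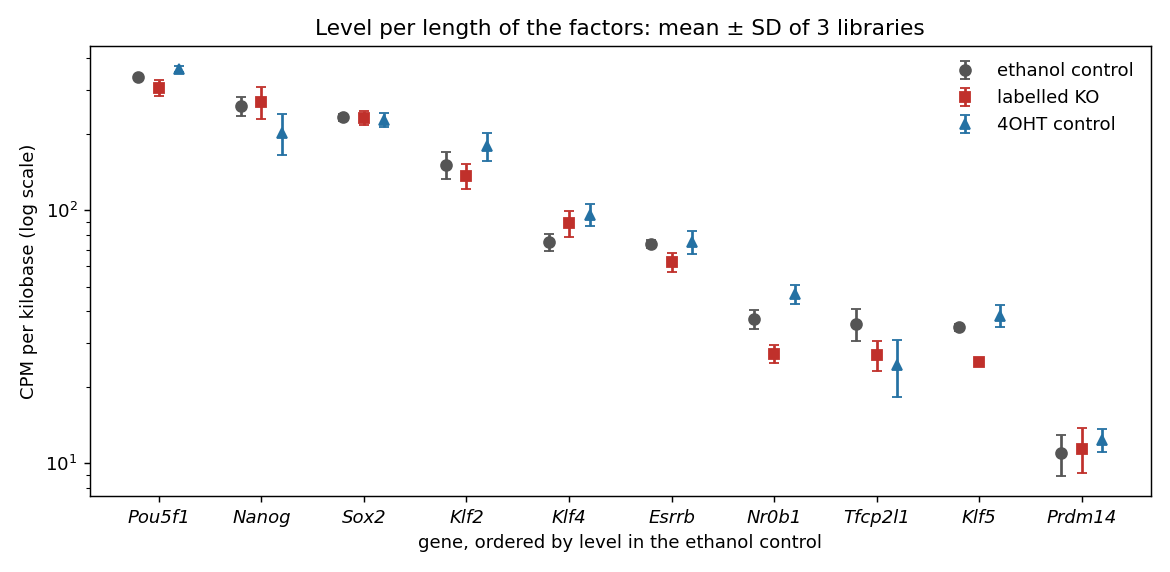
Level of each gene per length, in CPM per kb of exon on a log axis, by group. Points are means of 3 libraries and bars are SD. Pou5f1 lies at the top at 336 ± 4.25 CPM per kb in the ethanol control and Prdm14 at the bottom at 10.9 ± 2.01.

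Against the ethanol control, 3 of the 10 genes fell in the labelled KO libraries (Klf5, Nr0b1 and Esrrb) and 0 rose, at an adjusted p under 0.05 in edgeR's quasi-likelihood test. Of all tested genes, 27.2% were called in this comparison, 13.0% higher and 14.2% lower. Against the 4OHT control, 5 of 10 fell (Nr0b1, Klf5, Klf2, Esrrb and Pou5f1) and 0 rose, where 38.9% of all genes were called, 19.1% higher and 19.8% lower. The 4OHT control against the ethanol control gave 2 rises (Klf4 and Nr0b1) and 0 falls, with 18.4% of all genes called, 9.66% higher and 8.75% lower. At an unadjusted p under 0.05 the rises numbered 1 and 1 in the comparisons of the labelled KO libraries and the falls 2 between the controls, and DESeq2 called 0 in each of these. Taken in either direction, the share of the 10 that was called is near the background against the ethanol control and between the controls. Against the 4OHT control it was 5 of 10 beside 38.9% of all genes, a gap that was not tested. Each pair of comparisons shares a group of libraries.
The median log2 difference over the 10 genes was -0.14 against 0.01 over all genes for the KO label against ethanol, -0.18 against 0.02 for the KO label against the 4OHT control and 0.13 against 0.00 between the controls. The median absolute log2 difference was 0.19 for the 10 genes and 0.20 for all genes against the ethanol control, 0.25 and 0.24 against the 4OHT control, and 0.21 and 0.17 between the controls. Groups did not overlap for 5, 4 and 4 of the 10 genes in the 3 comparisons, where 41.9%, 48.2% and 35.1% of all genes did not overlap. With the replicate number as a block, 7, 7 and 8 of the 10 were called: 1 rose and 6 fell against the ethanol control, 1 rose and 6 fell against the 4OHT control, and 6 rose and 2 fell between the controls. The block raised the share called among all genes to 42.8%, 51.4% and 32.8%. In this bulk RNA, fewer cells of a kind and less RNA of a gene per cell cannot be told apart.

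**Figure D2:**
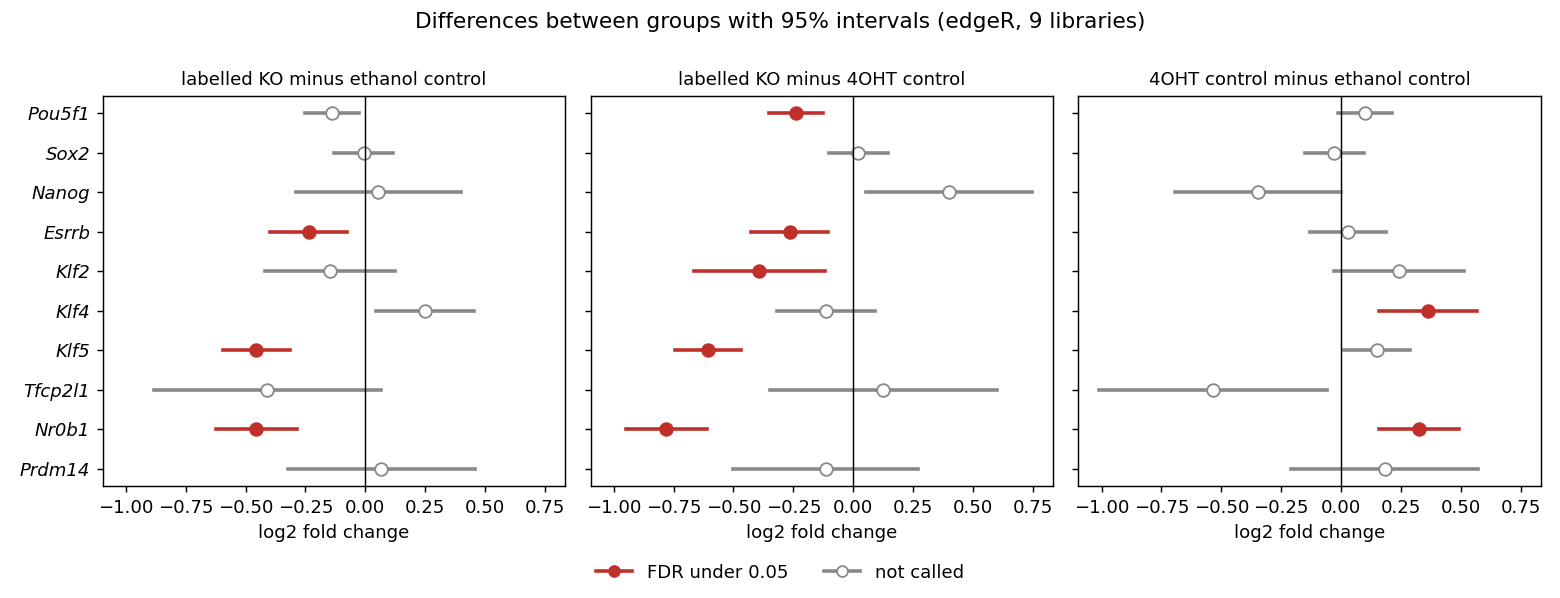
Log2 difference of each gene in the 3 comparisons, with 95% confidence intervals from the edgeR fit over 9 libraries. Klf5 and Nr0b1 lie left of 0 in both comparisons of the labelled KO libraries, filled points are called genes, and the Tfcp2l1, Prdm14 and Nanog intervals are wide.

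Pou5f1 (ENSMUSG00000024406.9) encodes Oct4, the POU factor without which the pluripotent lineage is not held. It measured 748, 752 and 766 CPM in ethanol control replicates 1 to 3. It measured 672, 744 and 643 in the labelled KO libraries, and 829, 817 and 786 with 4OHT alone. Every labelled KO library lay below every control library, and replicate 2 came within a few CPM of the ethanol control. Pou5f1 fell by 0.24 on the log2 scale against the 4OHT control (SE 0.05, edgeR adjusted p = 0.0021), a call kept under every alternative run. Against the ethanol control its difference was -0.14 (95% interval -0.25 to -0.03, adjusted p = 0.064), which was not called. That difference was called with the replicate block (adjusted p = 0.0024), with RLE scaling factors (0.050), with DESeq2 (0.041) and without labelled KO replicate 2, where it was -0.22 (0.0050). The 4OHT control lay above the ethanol control by 0.10 (adjusted p = 0.21, or 0.032 with the block). An antisense transcript of GENCODE M21, Gm19553, shares 317 exon bases with Pou5f1, and the sources used here do not say how strand was counted.

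Sox2 (ENSMUSG00000074637.3), the HMG-box partner of Oct4, was the flattest of the core genes. Its values were 461, 487 and 489 CPM with ethanol, 456, 462 and 512 under the KO label and 475, 438 and 496 in the 4OHT control. All 3 groups overlapped. The log2 difference against the ethanol control was -0.01 with a 95% interval from -0.13 to 0.12, and the sign turned with the scaling by library totals. The edgeR adjusted p was 0.95, 0.80 and 0.79 in the 3 comparisons.

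Nanog (ENSMUSG00000012396.5), a homeobox factor whose level is known to vary among ES cells, spread more widely than its partners. It measured 632, 538 and 564 CPM with ethanol, 687, 516 and 597 under the KO label and 544, 380 and 441 in the 4OHT control. The labelled KO and ethanol groups overlapped throughout, while the 4OHT control was lower apart from its replicate 1. Against the ethanol control the log2 difference was 0.05 (95% interval -0.29 to 0.40, adjusted p = 0.83). Relative to the 4OHT control it was 0.40 (0.05 to 0.75, adjusted p = 0.068), not called, and between the controls it was -0.35 (adjusted p = 0.16). Blocking on the replicate number called both in edgeR (adjusted p = 3.0e-09 and 6.5e-08), as did fitting with no filter on low counts (1.6e-10 and 7.5e-08) and leaving out 4OHT control replicate 1 (0.0065 and 0.022). Without the filter the differences themselves were 0.39 and -0.35, almost the same as with it. The smaller p-values of that fit therefore do not come from larger differences, and why they fell was not tested. Nanog shares aligned stretches of at least 200 bases at 90% identity or more with 40 other genes of the annotation, Nanog-ps1 among them, so its count is uncertain.

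**Figure D3:**
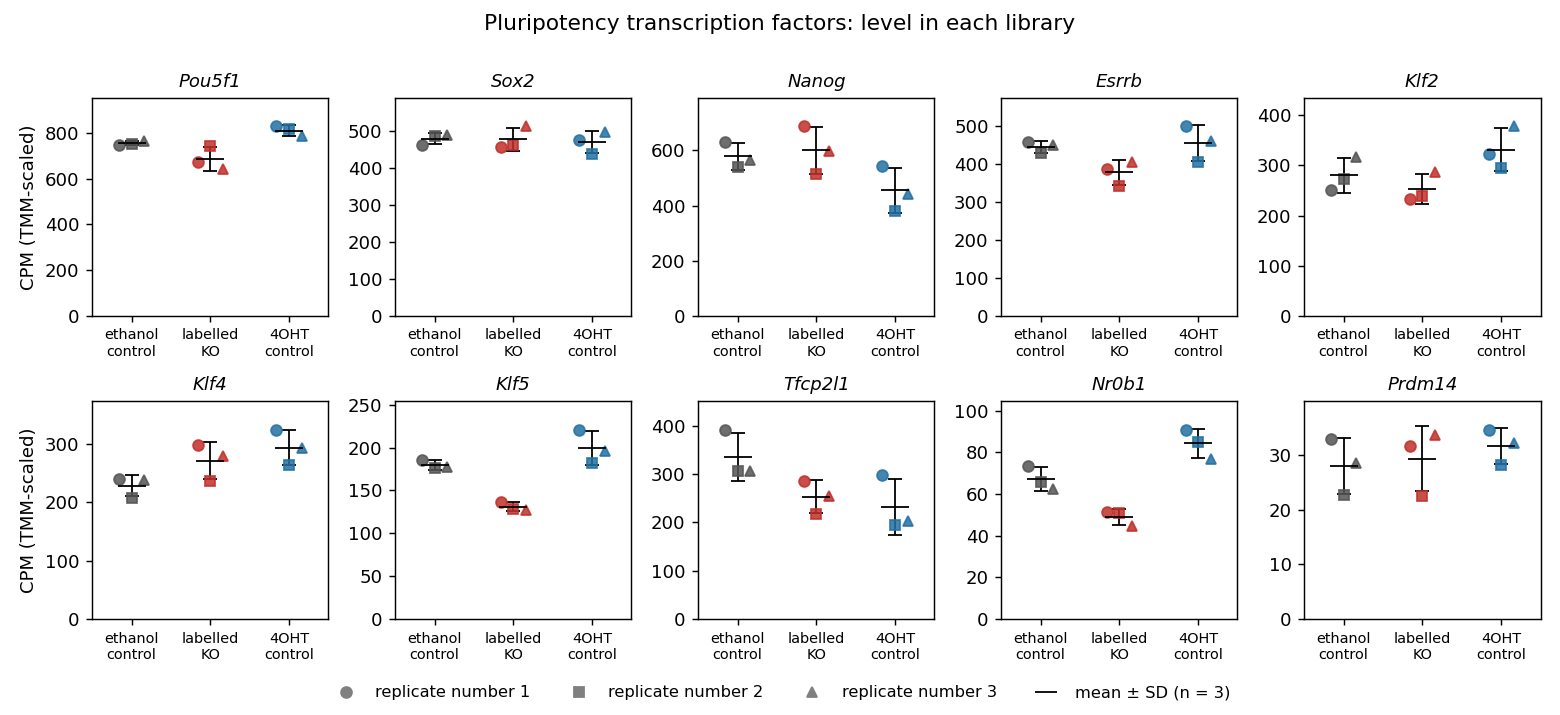
CPM of each of the 10 genes in the 9 libraries, 1 panel per gene with its own axis. Points are single libraries, their shape gives the replicate number, and lines are mean ± SD (n = 3). Klf5 and Nr0b1 show labelled KO libraries below both controls, and the Sox2 groups overlap.

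Esrrb (ENSMUSG00000021255.10), an orphan nuclear receptor that stands downstream of Wnt relief of Tcf7l1 repression, measured 457, 427 and 449 CPM in the ethanol control. It measured 387, 341 and 404 in the labelled KO libraries and 498, 403 and 459 in the 4OHT control. Labelled KO libraries lay below all of the ethanol control, and overlapped the 4OHT control through replicate 3 of the former and replicate 2 of the latter. Esrrb fell by 0.24 against the ethanol control (SE 0.07, edgeR adjusted p = 0.031) and by 0.26 against the 4OHT control (adjusted p = 0.012). The first call was lost with library totals (adjusted p = 0.14) and without ethanol control replicate 1 (0.083) or 3 (0.080) or labelled KO replicate 1 (0.053) or 2 (0.086). The second was lost with library totals (0.084) and without 4OHT control replicate 1 (0.053). With the replicate block both were called in edgeR (adjusted p = 6.1e-06 and 8.0e-07). Between the controls the difference was 0.03 (adjusted p = 0.84).

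Nr0b1 (ENSMUSG00000025056.4), also known as Dax1, encodes an orphan nuclear receptor that lacks the usual DNA-binding domain, can interact with Oct4 and lies on the X chromosome. Its values were 73.5, 65.6 and 62.2 CPM with ethanol, 51.5, 51.1 and 44.4 under the KO label and 90.9, 85.1 and 76.7 in the 4OHT control. The 3 groups did not overlap in any pairing. Nr0b1 fell by 0.45 against the ethanol control (SE 0.08, edgeR adjusted p = 0.00073) and by 0.78 against the 4OHT control (adjusted p = 2.0e-06), and it rose by 0.33 in the 4OHT control over the ethanol control (adjusted p = 0.0089). These 3 calls held under every alternative run.

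Tfcp2l1 (ENSMUSG00000026380.9), a Grainyhead-family factor driven by LIF and Stat3, measured 392, 307 and 307 CPM with ethanol, 286, 218 and 254 under the KO label and 298, 194 and 202 in the 4OHT control. The ethanol control lay above both other groups, and those overlapped. Its log2 difference from the ethanol control was -0.41 in the labelled KO libraries (95% interval -0.88 to 0.06, adjusted p = 0.18) and -0.53 in the 4OHT control (adjusted p = 0.12). Neither was called, and the replicates of Tfcp2l1 had the largest spread of the set, with a biological coefficient of variation of 0.17 where the trend at its level was 0.06. The block called both differences in edgeR (adjusted p = 0.00090 and 0.00018), as did leaving out 4OHT control replicate 1 (0.030 and 0.0053). The first was also called when only its own groups were fitted (0.039). The labelled KO libraries and the 4OHT control differed by 0.13 (adjusted p = 0.66). A small nuclear RNA gene of the files, Gm23497, shares 130 exon bases with Tfcp2l1.

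Prdm14 (ENSMUSG00000042414.7), a PR-domain factor that restrains FGF signalling and DNA methyltransferase genes, was the least abundant. It measured 32.9, 22.7 and 28.6 CPM with ethanol, 31.8, 22.6 and 33.7 under the KO label and 34.7, 28.3 and 32.2 in the 4OHT control. The groups overlapped, and replicate 2 was lowest in each. The differences were 0.07, -0.12 and 0.18 in the 3 comparisons (edgeR adjusted p = 0.81, 0.63 and 0.53), and with the block the last was called (adjusted p = 0.044).

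Klf2, Klf4 and Klf5 are zinc finger factors that bind related GC-rich sites and can in part stand in for each other in ES cells. Klf5 (ENSMUSG00000005148.7) measured 186, 176 and 177 CPM with ethanol, 137, 129 and 127 under the KO label and 221, 181 and 196 in the 4OHT control. All labelled KO libraries lay well below both controls, and the controls overlapped. Klf5 fell by 0.45 against the ethanol control (SE 0.07, edgeR adjusted p = 0.00011) and by 0.61 against the 4OHT control (adjusted p = 2.7e-06), and both calls held under every alternative run. Between the controls the difference was 0.15 (adjusted p = 0.12), and it was called with the block (0.0035) and without 4OHT control replicate 2 (0.039).
Klf2 (ENSMUSG00000055148.7) stood at 250, 272 and 318 CPM with ethanol, 233, 239 and 286 under the KO label and 322, 294 and 378 in the 4OHT control. The labelled KO libraries overlapped the ethanol control but not the 4OHT control. Klf2 fell by 0.39 against the 4OHT control (edgeR adjusted p = 0.029). This call was lost with library totals (0.058) and without labelled KO replicate 1 (0.094) or 2 (0.10) or 4OHT control replicate 1 (0.057) or 3 (0.065). With the block it was kept in edgeR (adjusted p = 5.1e-10). Against the ethanol control the difference was -0.15 (adjusted p = 0.40, or 0.0023 with the block), and between the controls it was 0.24 (0.21, or 7.8e-06 with the block).
Klf4 (ENSMUSG00000003032.7) is a Stat3 target in ES cells. Its values were 239, 207 and 239 CPM with ethanol, 297, 237 and 280 under the KO label and 324, 264 and 292 in the 4OHT control. The 4OHT control lay above all of the ethanol control, and labelled KO replicate 2 fell inside the ethanol range. Klf4 rose by 0.36 in the 4OHT control over the ethanol control (edgeR adjusted p = 0.019), a call lost without ethanol control replicate 2 (0.077) or 4OHT control replicate 1 (0.057). With the block this rise was kept (edgeR adjusted p = 1.9e-09). Against the ethanol control the labelled KO difference was 0.25 (95% interval 0.04 to 0.45, adjusted p = 0.070), not called. It was called with the block (1.8e-06), when only its own groups were fitted (0.041) and without labelled KO replicate 2 (0.014) or 4OHT control replicate 1 (0.044) or 2 (0.050). Set against the 4OHT control, it was -0.11 (0.37, or 0.0077 with the block). Klf5 and the annotated gene Gm6007 share 822 aligned bases at 90.02% identity, and Klf4 and the annotated gene Gm48640 share 242 at 91.32%.

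Ratios within a library do not depend on the scaling, and 3 were taken, chosen after the values were seen. The log2 ratio of Klf5 to Klf4 CPM was -0.36, -0.24 and -0.43 with ethanol, -1.12, -0.88 and -1.13 under the KO label and -0.55, -0.54 and -0.58 in the 4OHT control. No ranges overlapped, and the labelled KO libraries held the least Klf5 per Klf4. The ratio of Nr0b1 to Pou5f1 was -3.50 ± 0.14 with ethanol, -3.81 ± 0.09 under the KO label and -3.27 ± 0.08 for the 4OHT control (SD, n = 3), with the labelled KO libraries apart from both controls. The ratio of Pou5f1 to Sox2 was 0.66 ± 0.04, 0.52 ± 0.18 and 0.79 ± 0.12, and all its ranges overlapped. Over 9 two-sided exact permutation tests, the smallest p that 3 against 3 libraries allow is 0.1, and the tests whose ranges did not overlap gave 0.1 (adjusted 0.18), so none could pass 0.05.

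**Figure D4:**
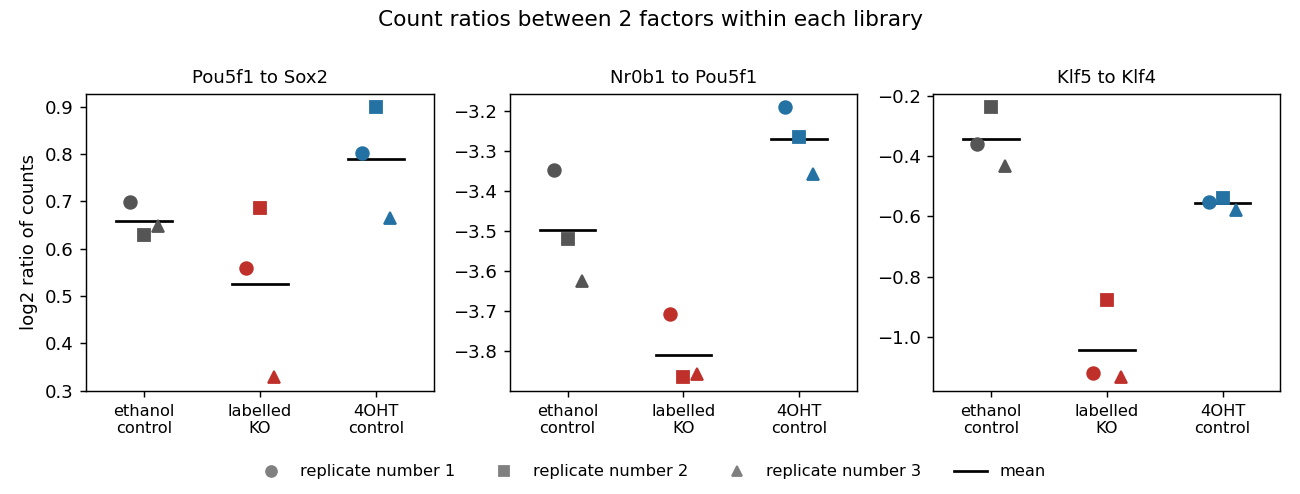
Log2 ratios of Klf5 to Klf4, Nr0b1 to Pou5f1 and Pou5f1 to Sox2 in each library, by group. The labelled KO points for Klf5 to Klf4 lie lowest, with a mean of -1.04, and those for Pou5f1 to Sox2 overlap the controls.

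The spread within groups followed the replicate numbers. In 7 of the 10 genes the same number was highest in all 3 groups, where 29.5% of all tested genes showed this. Number 1 was highest for Nanog, Klf4, Klf5, Tfcp2l1 and Nr0b1, and number 3 for Sox2 and Klf2. Nanog deviated from its group mean by 0.13, 0.21 and 0.27 log2 units in replicate 1 of the ethanol, labelled KO and 4OHT groups, and by -0.10, -0.21 and -0.25 in replicate 2. What the number stands for is not given in the labels.

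**Figure D5:**
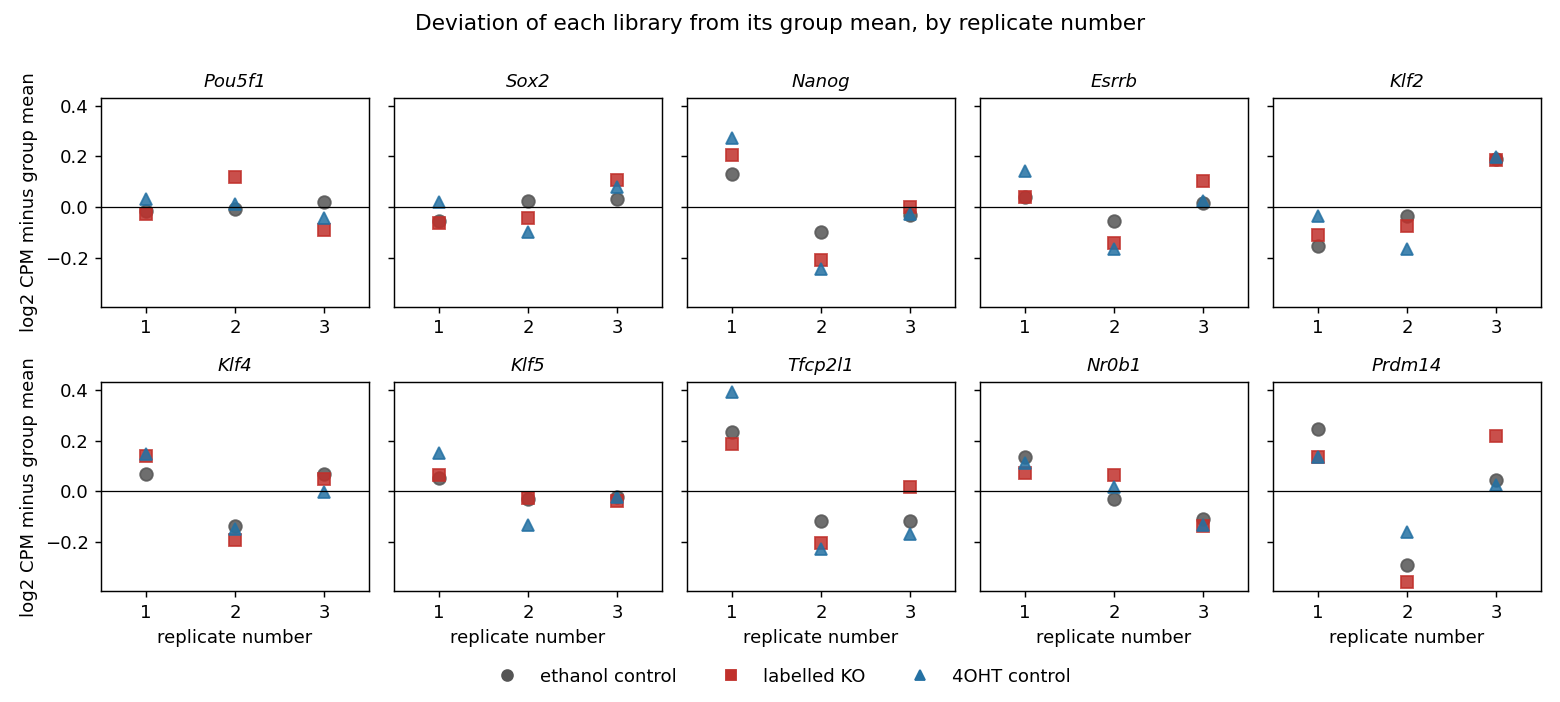
Deviation of each library from its group mean, in log2 CPM, for the 10 genes, against the replicate number, with shape and colour for the group. Replicate 1 is highest in all 3 groups for 5 genes and replicate 3 for 2 genes.

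Other genes of the circuitry were read from lists written from general knowledge. For scale, 13.0% of all tested genes rose and 14.2% fell against the ethanol control, and 19.1% rose and 19.8% fell against the 4OHT control. The block called 42.8% and 51.4% of all tested genes in either direction. Of 22 partners of the core network, 0 rose and 7 fell against the ethanol control (4 and 11 with the block), with a median log2 difference of -0.12. Of these partners 0 rose at an unadjusted p under 0.05 and 0 with DESeq2. Trim28, a chromatin corepressor, fell by 0.34 from 2470 ± 44.6 to 1956 ± 83.6 CPM (SD, n = 3, edgeR adjusted p = 5.0e-05). Tcf3, an E-protein gene, fell by 0.39 (0.00018), and Nr5a2, a nuclear receptor, by 0.33 (0.0011). Tcf3 here is not Tcf7l1, a separate gene, which was at -0.14 against the ethanol control (0.074, not called). Compared with the 4OHT control, 1 rose and 8 fell (5 and 9 with the block), and Tcf3 (-0.02, a sign that turned with library totals) and Nr5a2 (0.12) were not called. Among 26 known targets of the factors, 1 rose and 7 fell against the ethanol control (3 and 14 with the block) and 4 rose and 10 fell against the 4OHT control (5 and 16 with the block). Nodal, a TGF-beta family ligand, rose by 1.03 from 58.7 ± 2.23 to 120 ± 10.5 CPM (1.3e-07). Kdm4c, a histone demethylase, fell by 0.45 (6.3e-05), and Tcl1, an Akt coactivator, by 0.46 (0.0010).

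The inputs to the naive factors moved both ways, as did the tested genes as a whole. Of the latter, 13.0% rose and 14.2% fell against the ethanol control, and 19.1% rose and 19.8% fell against the 4OHT control. With the block, 42.8% and 51.4% of all tested genes were called in either direction. Of 11 genes of the LIF and Stat3 pathway, 2 rose and 2 fell against the ethanol control (3 and 4 with the block), and 6 rose and 4 fell against the 4OHT control. Lif rose by 1.60, from 5.01 ± 0.94 to 15.1 ± 1.55 CPM (edgeR adjusted p = 6.8e-06), while Il6st, the shared receptor subunit gp130, fell by 0.43 (1.0e-05). Stat3, chosen after its value was seen, fell by 0.23 (0.0033), and Gadd45g rose by 0.98 (0.0027). Of 10 genes of the Wnt and Tcf7l1 axis, 0 rose and 2 fell (0 and 5 with the block), and 0 rose and 6 fell against the 4OHT control (1 and 6 with the block, 2 and 4 with library totals). At an unadjusted p under 0.05 the rises in this axis were 0 and 1, and with DESeq2 0 and 0. Lef1, a Wnt effector, fell by 0.79 from 51.3 ± 5.60 to 29.5 ± 2.02 CPM (8.0e-06) and Apc by 0.19 (0.0099), and Gsk3a was at -0.14 (0.060). Of 13 genes of the FGF and ERK axis, 1 rose and 3 fell against the ethanol control (3 and 4 with the block). Relative to the 4OHT control 0 rose and 2 fell in edgeR (5 and 4 with the block), and 2 rose at an unadjusted p under 0.05 and 2 with DESeq2. Mapk3, the kinase ERK1, fell by 0.90 from 103 ± 8.26 to 55.2 ± 6.44 CPM (2.3e-06) and the ERK target Etv5 by 0.22 (0.0048), and the receptor gene Fgfr1 rose by 0.43 (8.3e-05). Against the 4OHT control Mapk3 fell by 0.47 (edgeR adjusted p = 0.00049) and Etv5 by 0.96 (8.0e-10). Fgfr1 was not called there, at 0.10 (0.19, or 0.039 with the block).

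Regulators of the formative and primed states take over when ES cells leave the naive state. Of 14 tested regulators of this kind, 0 rose and 4 fell against the ethanol control in edgeR (1 and 7 with the block; 1 rose at an unadjusted p under 0.05 and 1 with DESeq2), and 1 rose and 9 fell against the 4OHT control (1 and 10 with the block), with medians of -0.19 and -0.47. In these comparisons 13.0% and 19.1% of all tested genes rose and 14.2% and 19.8% fell, and the block called 42.8% and 51.4%. Between the controls 4 rose and 1 fell in the 4OHT control (8 and 2 with the block), with a median of 0.23. There 9.66% of all tested genes rose and 8.75% fell (32.8% called with the block). Dnmt3b, a de novo DNA methyltransferase, fell by 0.65 from 298 ± 20.2 to 190 ± 16.8 CPM (edgeR adjusted p = 2.3e-05), and the epithelial factor Grhl2 by 0.54 (0.00076). Of 26 tested paralogues of the 10 factors, 2 rose and 6 fell against the ethanol control (6 and 9 with the block), 1 rose and 12 fell against the 4OHT control (2 and 16), and 10 rose and 1 fell between the controls (13 and 3). Klf13 fell by 0.34 (0.00049), Klf8 by 0.43 (0.00072) and Klf16 by 0.31 (0.0025).

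Markers of other cell types that a culture could hold were low apart from primitive endoderm and neural genes. Among all tested genes 13.0% rose and 14.2% fell against the ethanol control, and 19.1% rose and 19.8% fell against the 4OHT control. The block called 42.8% and 51.4% of all tested genes in either direction. Summed over its list, trophectoderm stood at 12.1 to 15.3 CPM with ethanol, 14.1 to 17.5 under the KO label and 12.8 to 14.7 for the 4OHT control. Of 8 tested trophectoderm markers 1 rose against the ethanol control, Krt7 (0.88, edgeR adjusted p = 0.029, lost with DESeq2 and without any of 5 single libraries), and with the block 2 rose. Cdx2, the lineage's defining factor, was at 0.27 ± 0.09 CPM with ethanol, 0.52 ± 0.09 under the KO label and 0.57 ± 0.09 for the 4OHT control (SD, n = 3), and its difference of 0.98 from the ethanol control was not called (0.072), though every labelled KO library was higher. The sum for primitive endoderm, carried by Sparc and Lama1, was 554 to 623, 546 to 582 and 377 to 424 CPM in the 3 groups. Of 8 tested members 3 rose against the ethanol control (4 with the block) and 1 fell. Gata6, a factor that opposes Nanog in this lineage, rose by 1.20 from 1.58 ± 0.39 to 3.63 ± 0.71 CPM (0.0010), Gata4 by 0.84 (0.029, not called without ethanol control replicate 2 or 3 or labelled KO replicate 1 or 3), and Lama1 fell by 0.25 (0.015, not called with library totals or without ethanol control replicate 2). The direction of Lama1 depended on the control. Against the 4OHT control it rose by 0.78, from 122 ± 8.03 to 210 ± 22.0 CPM (edgeR adjusted p = 4.2e-07). Of 5 tested neural markers 1 rose and 0 fell against the ethanol control, with sums of 166 to 201, 174 to 205 and 179 to 203 CPM in the 3 groups. Neurod1 rose by 0.56 (0.0088), while Tubb3, at 104 ± 4.95 CPM under the KO label, was at -0.07 (0.42) and Nes at 0.13 (0.51). Compared with the 4OHT control 1 neural marker rose and 2 fell (1 and 3 with the block, 1 and 0 with library totals), with Tubb3 at -0.16 (0.046). Mesendoderm sums stayed within 6.72 to 11.4 CPM and fibroblast sums within 14.0 to 18.8 CPM over the 9 libraries, and 0 of 5 and 0 of 3 tested members were called against the ethanol control by edgeR. At an unadjusted p under 0.05, 1 of each list was higher, DESeq2 called 0, and with the block 1 of each rose. Lum, a fibroblast marker, had 0 reads in the 3 ethanol control libraries. Compared with the 4OHT control, 3 of 8 trophectoderm markers and 6 of 8 primitive endoderm markers rose (3 and 7 with the block) and 0 fell (0 also at an unadjusted p under 0.05 and with DESeq2), and 2 of 3 fibroblast markers rose and 1 fell. Of the mesendoderm markers 0 were called there (3 rose with the block, 2 were higher at an unadjusted p under 0.05, and DESeq2 called 0). The counts of rises went down to 0 for trophectoderm and 4 for primitive endoderm under single alternatives. The part of these levels in the results for the 10 factors was not tested.

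For each factor called in some comparison, the gene with the most similar course over the 9 libraries was found among 10525 genes, as the smallest root mean square difference of centred log2 CPM. The nearest were Aars2 for Pou5f1 (0.033), Rab11fip5 for Esrrb (0.046), Leprot for Klf5 (0.052), Per3 for Klf2 (0.065), Meioc for Klf4 (0.066) and Hap1 for Nr0b1 (0.073 log2 units). None of the 6 is another of the 10 factors. These are descriptions of 9 libraries that share groups and replicate numbers.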

How the data were processed

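Total RNA was depleted of ribosomal RNA and made into directional libraries, per the labels' protocols. Each deposited file holds 1 library's raw counts of reads by gene, under versioned Ensembl identifiers. The build mm9 and the tools cutadapt, Bowtie 1.1.2, MACS2, DiffBind, STAR, HTSeq and edgeR stand in the submitters' processing notes without roles. The annotation release and the strand setting of the counting are not given in the sources used here. GENCODE M21 and RefSeq are on another build, so M21 served for symbols (32620 of 37310 identifiers), exon lengths and overlaps, and RefSeq for promoter sequence in its own coordinates.

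The closing rows of HTSeq, which name no gene, entered neither totals nor tests; reads with no feature were 26.4% to 33.8% of reads per library. Counts were tested in R 4.3.3 with the quasi-likelihood F test of edgeR 4.0.16 (with limma 3.58.1), TMM scaling, filterByExpr and 1 robust fit of 9 libraries with a mean per group (6 residual degrees of freedom), tested on simulated data first. Genes were called at a Benjamini-Hochberg adjusted p under 0.05 over 16224 genes, and "rose" and "fell" mean such calls. Intervals are 95%, and CPM are TMM-scaled. No 2 libraries of a group matched within sampling noise.

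Libraries with the same replicate number deviated together from their group means across genes in all 9 pairs (lowest r 0.11, highest 0.31), which was taken as pairing; a fit with the number as a block is given beside the calls of the 10 factors and Zbtb11 and the list counts that it changes. Alternatives were RLE factors, library totals, DESeq2 1.42.0, no filter, a filter at 1 CPM in 3 libraries, only the groups compared, the block, and each library left out in turn. The members and lists were chosen with earlier results of these data known. Named genes are the 10 factors, Zbtb11, up to 3 genes per other list with the smallest p against the ethanol control (those at low levels and not called are given by counts), and the nearest course for each factor called.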

Additional observations from a re-analysis of the deposited data

How the results depend on the processing

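The number of the 10 factors called against the ethanol control was 3. It became 5 with no filter on low counts, 5 when only the groups compared were fitted, 7 with the replicate block, and 2 to 5 with single libraries left out (5 without 4OHT control replicate 1). DESeq2 called 4, with Pou5f1 gained (adjusted p = 0.041). In edgeR, RLE factors also gained Pou5f1 (adjusted p = 0.050), and library totals lost Esrrb (0.14). Against the 4OHT control the number called was 5, 6 with no filter, 3 with library totals, 7 with the replicate block and 4 to 5 with single libraries left out. Between the controls it was 2, 5 with no filter, 8 with the replicate block and 1 to 3 with single libraries left out (1 without ethanol control replicate 2). Scaling by library totals moved the median log2 difference of all genes from 0.01 to 0.09 and from 0.02 to 0.10 in the 2 comparisons of the labelled KO libraries, and the share of calls that were higher from 47.8% to 66.5% and from 49.1% to 64.4%.

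With no filter, Klf4 (adjusted p = 0.00071) and Tfcp2l1 (2.6e-10) were gained against the ethanol control in edgeR, Nanog (1.6e-10) against the 4OHT control, and Klf2 (0.00082), Nanog (7.5e-08) and Tfcp2l1 (9.1e-17) between the controls. These differences hardly moved while their p-values did, as for Tfcp2l1 between the controls, from -0.5345 to -0.5346. Signs turned for differences near 0. Sox2 against the ethanol control was 0.0634 with library totals, 0.0025 with the 1 CPM filter and -0.0668 to 0.017 with single libraries left out. Against the 4OHT control it was -0.0001 with DESeq2 and -0.0359 to 0.0607 with libraries left out, and between the controls -0.0718 to 0.0176. With libraries left out, Nanog ranged from -0.0632 to 0.1369 and Prdm14 from -0.0752 to 0.2091 against the ethanol control, Prdm14 from -0.2251 to 0.0328 against the 4OHT control, and Esrrb from -0.0467 to 0.1044 between the controls. Tcf3 against the 4OHT control was 0.0635 with library totals and -0.0769 to 0.0256 with libraries left out. The cause of these changes was not tested.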

Other observations

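Markers of the 2-cell-like state, a rare state of ES cell cultures, were low in every library. Their summed level was 7.60 to 10.1 CPM in the ethanol control, 11.6 to 14.9 in the labelled KO libraries and 10.7 to 15.7 in the 4OHT control. Of 5 tested, 2 rose against the ethanol control (4 with the replicate block) and 0 were called against the 4OHT control by edgeR (0 also at an unadjusted p under 0.05 and with DESeq2). The shares of all tested genes that rose in these comparisons were 13.0% and 19.1%. Zscan4c rose by 0.82 from 2.31 ± 0.07 to 4.07 ± 0.84 CPM (SD, n = 3, edgeR adjusted p = 0.010), and Zfp352 by 1.02 (0.045), a call lost with DESeq2 and without any of 5 single libraries. Against the 4OHT control the differences were 0.38 and 0.56, and were not called.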
